A study of Mus musculus with 9 samples.

Results

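The genes described here are 31 genes of cholesterol and fatty acid synthesis, taken by symbol from a table of 54146 genes measured in mouse T follicular helper (Tfh) cells. All 31 were among the 15521 genes with enough counts to be tested. Of them 21 form a sterol branch, made up of 18 enzymes, from acetyl-CoA through mevalonate and squalene to cholesterol, and 3 genes of sterol regulation and transport. The other 10 form a fatty acid branch of synthesis, desaturation and elongation.

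Tfh cells are the helper T cells that support B cells in germinal centres. They were sorted as CD4+CXCR5+PD1+ cells from Peyer's patches, lymphoid organs in the wall of the small intestine. Of the 9 libraries 5 are from mice heterozygous at Tgfbr1, a gene for a TGF-beta receptor subunit (Tgfbr1 WT/mut, replicates 6 to 10). The other 4 are from wild-type mice (WT, numbered 1, 3, 4 and 5). No treatment is named, and the labels do not state the mutation, the age or sex of the mice, or whether each library came from its own animal, so p-values measure the spread between these libraries, which may be technical.

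Cells make cholesterol from acetyl-CoA in a long chain of enzymes whose intermediates also feed protein prenylation, and they make fatty acids from the same acetyl-CoA through malonyl-CoA. When sterol in the endoplasmic reticulum is low, the transcription factor SREBP2 (gene Srebf2) is released from its anchor proteins, which include INSIG1, and turns on the sterol enzymes. SREBP1 (gene Srebf1) acts mainly on the fatty acid genes. Both bind sterol regulatory elements, usually beside sites for the factors NF-Y and Sp1. T cells raise both pathways when they grow and divide.

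Promoter sequences of a few members of both branches are shown because the SREBP factors are known to act through these motifs. RefSeq promoters (GRCm38.p6, the 250 bases before a gene's start) matched 17 sterol and 7 fatty acid members. Fdps, Fdft1, Sqle, Stard4, Scd1, Scd2 and Fads1 had no match, so both branches are incomplete here. The stretch matched to Acaca (chr11:84195188-84195437) lies inside its annotated gene, which begins at 84129672. The NF-Y letters CCAAT, on either strand, occurred in 16 of the 17 sterol promoters, all except that of Acat2, and in 3 of the 7 fatty acid promoters, those of Srebf1, Fasn and Elovl5. They occurred in 37.5% of all 27025 gene symbols with such a promoter and in 40.3% of the 9582 symbols that were also tested here. The Sp1 letters GGGCGG occurred in 16 of 17 and 3 of 7, against 62.7% of the tested symbols. The sterol regulatory element core CACNCCAC was found in 3 sterol promoters (Acat2, Hmgcs1 and Insig1) and in 0 of the 7 fatty acid promoters, against 6.55% of the tested symbols. The E-box letters CACGTG were found in 4 of 17 and 1 of 7, against 9.83%. A gene with several annotated starts counts once if any of them holds the motif. Dhcr7 counted for CCAAT only through a stretch (chr7:143829964-143830213) inside its annotated gene, which begins at 143823145. All these motif counts are letter matches in the reference and say nothing of binding in these cells.

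The promoters of Hmgcs1 (chr13:119690101-119690350, plus strand), Fasn (chr11:120824548-120824797, minus strand) and Acly (chr11:100528001-100528250, minus strand) follow, 5′ to 3′ in the direction of the gene. Capitals mark CCAAT, or ATTGG where the box lies on the opposite strand, and CACNCCAC. Hmgcs1, an early sterol enzyme, has 3 boxes and 1 sterol element. Fasn has 3 boxes, of which one pair overlaps on opposite strands in the letters CCAATTGG. Acly has none of either motif.
Hmgcs1: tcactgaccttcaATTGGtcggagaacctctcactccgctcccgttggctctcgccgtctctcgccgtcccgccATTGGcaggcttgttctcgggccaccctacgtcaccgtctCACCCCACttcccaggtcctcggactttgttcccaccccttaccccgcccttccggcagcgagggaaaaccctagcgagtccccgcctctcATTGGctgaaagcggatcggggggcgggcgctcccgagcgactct
Fasn: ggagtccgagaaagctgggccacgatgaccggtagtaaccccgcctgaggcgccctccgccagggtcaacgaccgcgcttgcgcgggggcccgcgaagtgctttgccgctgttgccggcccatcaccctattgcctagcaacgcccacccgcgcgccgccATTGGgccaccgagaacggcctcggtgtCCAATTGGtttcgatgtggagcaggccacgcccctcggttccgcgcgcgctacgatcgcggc
Acly: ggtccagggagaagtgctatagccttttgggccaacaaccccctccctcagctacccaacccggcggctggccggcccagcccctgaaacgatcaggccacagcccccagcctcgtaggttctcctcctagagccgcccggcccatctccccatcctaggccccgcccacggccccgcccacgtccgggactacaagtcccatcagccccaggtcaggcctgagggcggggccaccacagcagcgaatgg

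For Msmo1 and Cyp51, both lower in every WT/mut library than in any WT library, stretches of 25 bases around each CCAAT box are given, since their upstream windows run into annotated exons. The Msmo1 boxes begin 55, 96 and 160 bases before the RefSeq start (chr8:64733619-64733643, chr8:64733660-64733684 and chr8:64733724-64733748, minus strand), and the Cyp51 box begins 29 bases before it (chr5:4104712-4104736, minus strand). The sterol element core of Insig1 (chr5:28071395-28071419) lies on the strand opposite to the gene, beginning 9 bases before its RefSeq start. The annotated Insig1 gene begins at 28071363, so this stretch lies inside it. The Msmo1 and Cyp51 stretches also lie inside their annotated genes, which on the minus strand begin at 64733792 and 4104746.
Msmo1 box 55: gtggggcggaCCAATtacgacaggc
Msmo1 box 96: ttagcacggaCCAATcactgcacgg
Msmo1 box 160: atccgcgcagCCAATgactggcgcc
Cyp51 box 29: ctgtccgccaCCAATctggtcctga
Insig1 element 9: tggaaggtaCACGCCACgacactac

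Library totals lay between 29488783 and 43872686 counts. WT/mut replicate 7 had a count in 30143 genes, the other libraries in 17904 to 20264. All 10 markers of Tfh cells had counts, and their summed level was 7083 to 7389 CPM (counts scaled to library size) in WT/mut and 7423 to 8606 CPM in WT libraries, which did not overlap. The list was mixed, with 7 log2 fold changes below 0 and 3 above. Icos (-0.52) and Il21 (-0.55) were separate and lower, while Cd3e (0.04), Cd4 (0.14) and Bcl6 (0.17) were above 0. Plasma cell markers summed to 224 to 906 CPM in WT/mut libraries and 34.4 to 144 CPM in WT libraries, and red cell markers to 401 to 870 CPM in WT/mut libraries and 98.5 to 282 CPM in WT libraries. Neither sum overlapped between the genotypes. The plasma list was mixed: of its 5 tested markers Igha and Jchain were separate and higher, Mzb1 and Derl3 overlapped, and Sdc1 was at -0.21. B cell markers summed to 247 to 549 CPM in WT/mut libraries and 119 to 299 CPM in WT libraries. Epithelial markers summed to 48.2 to 411 CPM in WT/mut libraries and 206 to 814 CPM in WT libraries. Myeloid markers summed to 67.1 to 358 CPM in WT/mut libraries and 63.4 to 202 CPM in WT libraries, which overlapped. Of the 8 myeloid markers 7 were above 0 and 1 below, with a median log2 fold change of 0.95, and 0 had an unadjusted p under 0.05. Proliferation genes summed to 288 to 461 CPM in WT/mut libraries and 258 to 302 CPM in WT libraries. Of these 10 genes 9 were above 0, with a median log2 fold change of 0.55, 5 were higher at an unadjusted p under 0.05, and their part in the branch values was not tested. No marker of the plasma, red, B or epithelial lists was at 0 in all libraries. Tgfbr1 averaged 73.6 CPM in WT/mut libraries and 77.0 CPM in WT libraries (-0.07 ± 0.21 on the log2 scale), and counts per gene do not tell its alleles apart. In bulk RNA, fewer cells of a type and less RNA per cell cannot be told apart.

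In WT/mut cells the sterol branch lay below WT as a group and the fatty acid branch did not. Of the 21 sterol genes 19 had a log2 fold change (WT/mut over WT) below 0, among them all 18 enzymes, with a median of -0.31 over the branch. Of all tested genes 49.8% were below 0. Of the 10 fatty acid genes 4 were below 0 and 6 above, with a median of 0.10, beside a median of 0.00 over all tested genes. No test of the branches against each other was made. The contrast holds for these lists only: of 21 tested fatty acid genes outside the branch, described below, 18 were below 0, with a median of -0.25. Within the sterol branch the 7 mevalonate genes had a median of -0.26, the 11 genes from squalene to sterol -0.36, and the 3 regulation genes 0.08. The 4 fatty acid synthesis genes had a median of 0.28 and the 6 desaturation and elongation genes 0.04. Without WT replicates 1 and 5 together, an alternative chosen after seeing the data, the sterol median was -0.16 and the fatty acid median 0.04. Without WT replicate 1 alone the fatty acid median was 0.06, and without WT/mut replicates 7 and 9 together, also chosen after seeing the data, it was 0.06.

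None of the 31 genes passed an adjusted p under 0.05 in edgeR's quasi-likelihood test with Benjamini-Hochberg adjustment over all tested genes, which called 0.0902% of tested genes lower and 0.0322% higher in WT/mut. At an unadjusted p under 0.05, 8 sterol genes were lower and 0 higher, while 0 fatty acid genes passed in either direction. The same rule took 6.46% of all tested genes as lower and 5.69% as higher, against 38.1% of the sterol genes as lower. The members were chosen with earlier results of these data known, so the shares describe the branch and do not test it. CPM ranges of the genotypes were separate for 4 sterol genes, all lower in WT/mut (19.0% of the branch), and for 0 fatty acid genes. Over all tested genes 2.38% were separate and lower and 2.09% separate and higher. DESeq2, the other count test, called 4 sterol genes lower (Msmo1, Sqle, Fdps and Cyp51) and 0 fatty acid genes, beside 0.873% of its tested genes lower and 0.989% higher.

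The 5 sterol genes Fdps, Fdft1, Sqle, Cyp51 and Msmo1 were lower at an unadjusted p under 0.05 as reported and in 19 of 20 alternatives. In the other one, with the plasma cell marker level as a covariate, Insig1 alone of the branch was, 1.58% of all tested genes passed as lower, the sterol median was -0.12 and the fatty acid median -0.10. The plasma marker sum, carried mainly by Igha and Jchain, and the genotype divide the libraries in the same way, so their parts in the sterol result cannot be told apart.

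**Figure D1:**
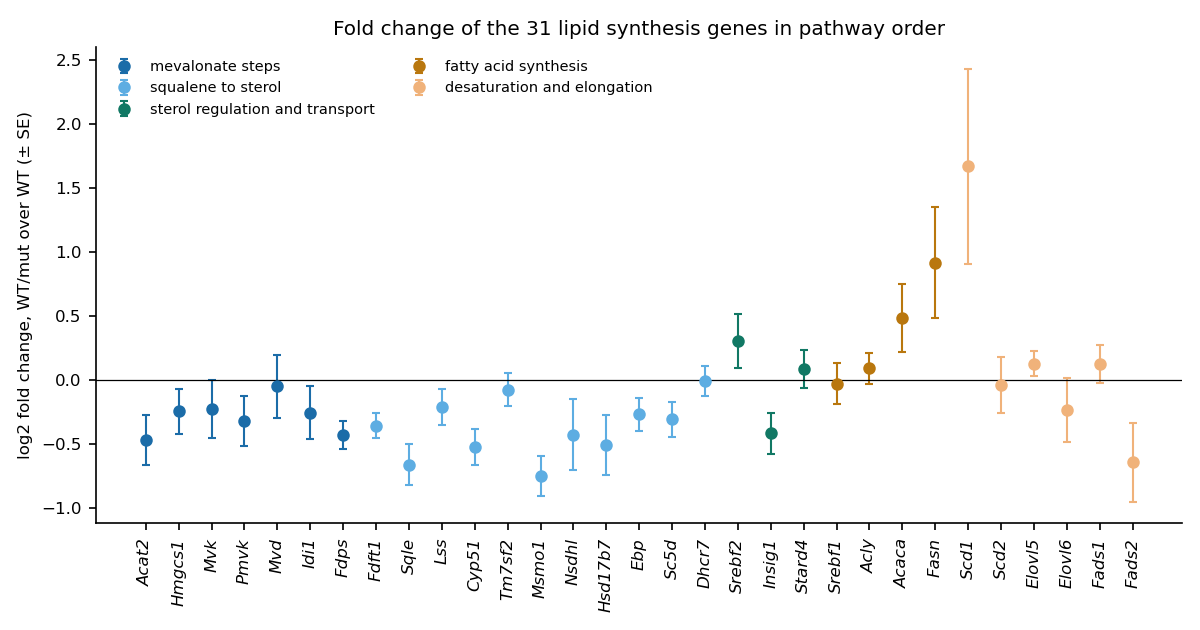
Log2 fold change of each of the 31 genes, WT/mut (n = 5 libraries) over WT (n = 4), in pathway order from left to right; points are edgeR estimates, bars ± SE, and colours the 5 gene groups. The 18 sterol enzymes all lie below 0, down to -0.75 for Msmo1, while the fatty acid genes spread from -0.64 (Fads2) to 1.67 (Scd1, 0.95 without WT/mut replicate 9) with wide bars at the ends.

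The mevalonate part begins with Acat2, which joins acetyl-CoA units. It had 65.3, 55.3, 54.3, 43.9 and 65.1 CPM in WT/mut replicates 6 to 10, against 114, 57.2, 66.0 and 77.8 CPM in WT replicates 1, 3, 4 and 5. WT replicate 1 stood highest, and WT replicate 3 lay within the WT/mut range. WT/mut over WT, the log2 fold change was -0.47 ± 0.19 (SE; edgeR adjusted p = 0.375). Without WT replicate 1 it was -0.23, and the unadjusted p was no longer under 0.05.

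Fdps (ENSMUSG00000059743.12, chromosome 3, 89093588 to 89101959, GRCm38), which makes the farnesyl diphosphate shared by sterols and prenylated proteins, had 80.6, 59.6, 63.7, 66.1 and 74.1 CPM in WT/mut libraries, against 94.4, 85.2, 92.4 and 99.4 CPM in WT libraries. Every WT/mut library was below every WT library. Its means were 68.8 ± 8.4 CPM in WT/mut libraries and 92.9 ± 5.9 CPM in WT libraries (SD, n = 5 and 4), a log2 fold change of -0.43 ± 0.11 (edgeR adjusted p = 0.207; DESeq2 adjusted p = 0.0235). The exact two-sided permutation p was 0.0159, where the smallest possible with 5 and 4 libraries is 0.00794.

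The other 5 mevalonate genes overlapped between genotypes. Hmgcs1, which makes HMG-CoA, averaged 40.2 ± 8.2 CPM in WT/mut libraries and 47.7 ± 10.0 CPM in WT, a log2 fold change of -0.25 ± 0.18. The kinases Mvk (-0.23 ± 0.23) and Pmvk (-0.32 ± 0.20) act in sequence on mevalonate, Mvd (-0.05 ± 0.24) removes a carboxyl group from its product, and Idi1 (-0.26 ± 0.21) interconverts the isoprenoid building blocks. Their edgeR adjusted p lay between 0.504 and 0.947. All 5 depended on single libraries: Pmvk was at -0.10 without WT replicate 1, Hmgcs1 at -0.16 without WT/mut replicate 10 and -0.10 without WT replicate 5, Idi1 at -0.17 without WT/mut replicate 8 and -1.4e-05 without WT replicate 5, and Mvk at -0.12 without either WT/mut replicate 7 or WT replicate 4. Mvd turned above 0 without WT/mut replicate 8 and without WT replicate 4.

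From squalene onwards every enzyme leads to sterols alone. Fdft1 (ENSMUSG00000021273.10, chromosome 14, 63145150 to 63179578), squalene synthase, had 68.9, 65.7, 60.6, 64.1 and 79.1 CPM in WT/mut libraries, against 87.9, 90.6, 87.8 and 81.2 CPM in WT libraries. The genotypes did not overlap, with WT/mut replicate 10 nearest to WT. On the log2 scale the difference was -0.36 ± 0.10 (edgeR adjusted p = 0.247; exact permutation p = 0.0159; DESeq2 adjusted p = 0.0550). Its exons share 774 bases with those of Ctsb on the opposite strand, which had 655205 counts over the libraries against 24451 for Fdft1, and the kit does not keep strand, so the split of reads between this pair is uncertain.

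Sqle (ENSMUSG00000022351.14, chromosome 15, 59315077 to 59331192), which oxidises squalene and limits the pathway's rate, had 52.4, 39.6, 55.3, 51.8 and 75.3 CPM in WT/mut libraries, against 92.6, 73.7, 89.2 and 92.2 CPM in WT libraries. WT/mut replicate 10 stood just above WT replicate 3, and the other 4 WT/mut libraries were below all WT libraries. This gave a log2 fold change of -0.66 ± 0.16 (edgeR adjusted p = 0.193; DESeq2 adjusted p = 0.0129; exact permutation p = 0.0238). The cyclase Lss, which closes the first sterol ring system, was less far from WT, at 29.7 ± 2.3 CPM in WT/mut libraries and 34.4 ± 6.1 CPM in WT (-0.22 ± 0.14, edgeR adjusted p = 0.532). It was -0.14 without WT replicate 1 and -0.34 without WT replicate 3.

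Cyp51 (ENSMUSG00000001467.5, chromosome 5, 4081145 to 4104746), the lanosterol demethylase, had 58.7, 54.1, 59.8, 76.1 and 70.9 CPM in WT/mut libraries, against 76.5, 82.1, 103 and 107 CPM in WT libraries. WT/mut replicate 9 and WT replicate 1 nearly met, with no overlap. The log2 fold change was -0.53 ± 0.14 (edgeR adjusted p = 0.218; DESeq2 adjusted p = 0.0298; exact permutation p = 0.0159). Its exons share 166 bases with Akap9 on the opposite strand, which had 51520 counts over the libraries against 24682 for Cyp51. The split of reads between this pair is likewise uncertain.

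Msmo1 (ENSMUSG00000031604.10, chromosome 8, 64718139 to 64733792), which starts the removal of the methyl groups at carbon C-4 of the sterol ring, had the lowest p of the 31 genes. It had 98.9, 72.0, 89.5, 82.0 and 100.4 CPM in WT/mut libraries, against 159.7, 119, 128 and 191 CPM in WT libraries. Every WT/mut library was below every WT library, and the WT libraries spread more widely. Means were 88.6 ± 11.9 CPM in WT/mut libraries and 149 ± 33 CPM in WT (SD, n = 5 and 4), a log2 fold change of -0.75 ± 0.15. The unadjusted edgeR p was 0.000424, rank 62 among the tested genes, and the edgeR adjusted p was 0.104. The DESeq2 adjusted p was 0.000694, and the exact permutation p was 0.00794, the smallest possible. Over the 20 alternatives its log2 fold change stayed between -0.85 and -0.32.

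Nsdhl (-0.43 ± 0.28) and Hsd17b7 (-0.51 ± 0.24) act beside Msmo1 in that removal. Nsdhl had 10.9 to 26.1 CPM in WT/mut libraries and 18.3 to 38.4 CPM in WT libraries, with -0.27 without WT/mut replicate 7, -0.21 without WT replicate 1 and a turn above 0, to 0.07, without WT replicates 1 and 5 together. Hsd17b7 had 11.99 to 15.8 CPM in WT/mut libraries and 11.3 to 29.6 CPM in WT libraries, with 3 of the 4 WT libraries above every WT/mut library. Without WT replicate 5 it was at -0.26. The edgeR adjusted p was 0.528 for Nsdhl and 0.414 for Hsd17b7.

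Sc5d, a desaturase near the end of the pathway, had 57.4, 39.1, 40.7, 53.2 and 43.0 CPM in WT/mut libraries, against 55.1, 54.2, 61.0 and 61.5 CPM in WT libraries. WT/mut replicate 6 lay within the WT range and the other 4 below it. A log2 fold change of -0.31 ± 0.13 was fitted (edgeR adjusted p = 0.389). The isomerase Ebp had -0.27 ± 0.13 (edgeR adjusted p = 0.420), with WT replicate 1 at 84.7 CPM and all other libraries at 50.8 to 62.9 CPM. Without WT replicate 1 the Ebp value was -0.12. The reductases Tm7sf2 (-0.08 ± 0.13) and Dhcr7 (-0.01 ± 0.12) had log2 fold changes near 0, and both took either sign across the alternatives. Tm7sf2 shares 532 exon bases with Vps51.

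**Figure D2:**
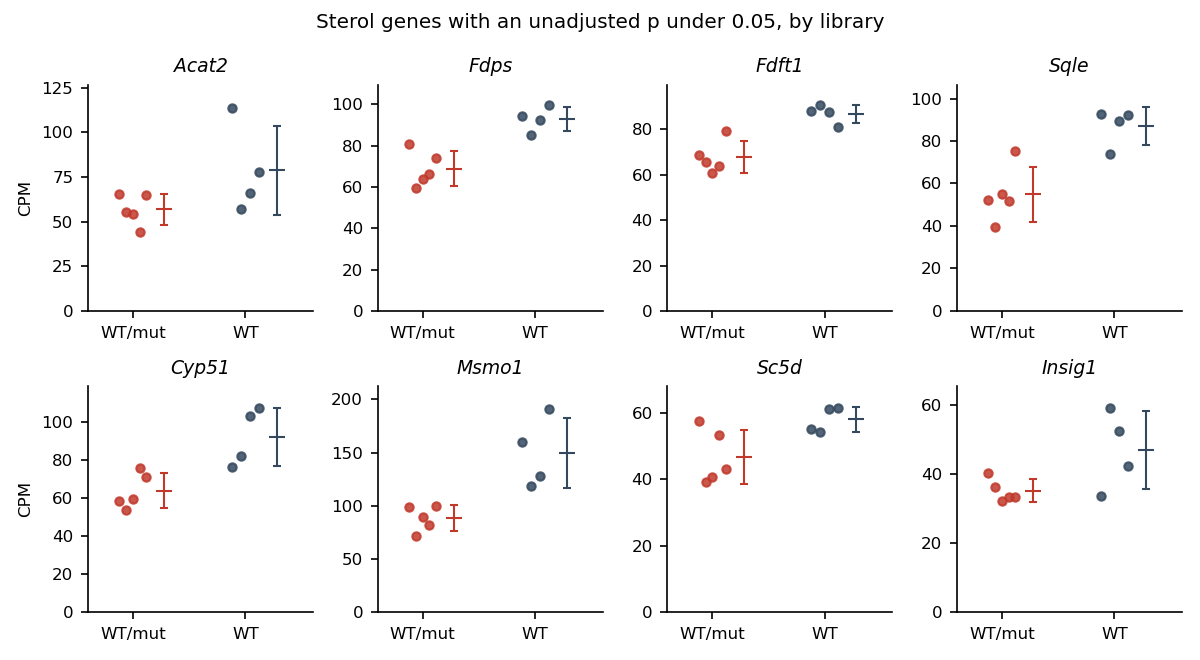
CPM of the 8 sterol genes with an unadjusted edgeR p under 0.05, in 5 WT/mut libraries (red, left) and 4 WT libraries (dark, right); each point is a library and the bar beside it the mean ± SD. For Fdps, Fdft1, Cyp51 and Msmo1 all WT/mut points lie below all WT points, while Insig1, Acat2, Sqle and Sc5d overlap.

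The sterol regulators did not follow the enzymes as a group. Insig1, an endoplasmic reticulum anchor that is itself induced when sterol is low, had 40.4, 36.3, 32.2, 33.2 and 33.3 CPM in WT/mut libraries, against 33.7, 59.2, 52.5 and 42.4 CPM in WT libraries. WT replicate 1 lay within the WT/mut range and the other 3 WT libraries above it. The log2 fold change was -0.42 ± 0.16 (edgeR adjusted p = 0.344). It was in WT replicates 1 and 5, the libraries highest in 7 sterol members each, that Insig1 was lowest among the WT libraries.

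Srebf2 had 248, 207, 224, 261 and 240.0 CPM in WT/mut libraries, against 124, 247, 259 and 137 CPM in WT libraries. WT replicates 1 and 5 were low, and WT replicates 3 and 4 lay within the WT/mut range. A log2 fold change of 0.30 ± 0.21 was fitted (edgeR adjusted p = 0.560), and one of -0.11 without WT replicates 1 and 5. Leaving out single WT libraries gave 0.14 without replicate 1, 0.17 without replicate 5 and 0.49 without replicate 4. Stard4, which carries sterol between membranes, averaged 56.4 ± 7.4 CPM in WT/mut libraries and 53.2 ± 9.4 CPM in WT libraries (0.08 ± 0.15, edgeR adjusted p = 0.842), and turned to -0.10 without the same WT libraries.

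In the fatty acid branch no synthesis gene was separate between the genotypes. Srebf1 had 104, 103, 151, 124 and 142 CPM in WT/mut libraries, against 110.4, 143, 156 and 100.3 CPM in WT libraries, and the ranges overlapped throughout. Its exons share 109 bases with Rai1 on the opposite strand. Its log2 fold change was -0.03 ± 0.16 (edgeR adjusted p = 0.950), with either sign across the alternatives. Acly, which splits citrate into cytosolic acetyl-CoA for both branches, had 359.9, 316, 447, 359 and 443 CPM in WT/mut libraries, against 347, 324, 366 and 412 CPM in WT libraries. WT/mut libraries lay on both sides of the WT range, with a log2 fold change of 0.09 ± 0.12 (edgeR adjusted p = 0.795).

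Acaca, which makes malonyl-CoA, had 8.87, 8.72, 6.18, 8.30 and 7.97 CPM in WT/mut libraries, against 4.05, 4.46, 8.90 and 5.52 CPM in WT libraries. WT replicate 4 was the highest of all 9 libraries and the other 3 WT libraries were below every WT/mut library. Its log2 fold change was 0.48 ± 0.27 (edgeR adjusted p = 0.477), and 0.78 without WT replicate 4.

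Fasn (ENSMUSG00000025153.9, chromosome 11, 120805846 to 120824547), the fatty acid synthase, had 61.0, 56.0, 50.9, 79.0 and 52.6 CPM in WT/mut libraries, against 8.74, 36.5, 63.1 and 18.8 CPM in WT libraries. The WT libraries spread widely, with WT replicate 4 inside the WT/mut range and the other 3 below it. Means were 59.9 ± 11.4 CPM in WT/mut libraries and 31.8 ± 23.8 CPM in WT (SD, n = 5 and 4). The log2 fold change was 0.91 ± 0.43 (edgeR adjusted p = 0.425; exact permutation p = 0.0397), 0.60 without WT replicate 1, 1.49 without WT replicate 4 and 0.26 without WT replicates 1 and 5 together. In those libraries genes with the most exon bases were also low as a class. Exon bases are all annotated exons of a gene merged, which can exceed the length of any single transcript. The median log2 deviation from a gene's mean over libraries was taken for the 3879 longest tested genes minus that for the 3879 shortest. It was -0.16 in WT replicate 1 and -0.06 in WT replicate 5. The other WT libraries had -0.02 and 0.07, and WT/mut libraries -0.004 to 0.11. Of the 6 members in the long class, Fasn (10947 exon bases), Acaca (17074), Srebf2 (7184) and Elovl6 (6431) were at their lowest WT level in WT replicate 1. Lss (10787) was at the highest level of all 9 libraries there, and Msmo1 (6144) was higher there than in every library but WT replicate 5. The part of exon or transcript length in these values was not tested.

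Scd1, a desaturase that makes monounsaturated fatty acids, had 3.25, 2.70, 8.78, 25.8 and 9.31 CPM in WT/mut libraries, against 0.38, 2.76, 5.06 and 4.32 CPM in WT libraries. WT/mut replicate 9 stood far above the rest and WT replicate 1 far below, and the ranges overlapped. This gave a log2 fold change of 1.67 ± 0.76 (edgeR adjusted p = 0.411; exact permutation p = 0.127), and of 0.95 without WT/mut replicate 9. WT/mut replicate 9 also had the highest sums of B cell markers, 549 CPM, and of proliferation genes, 461 CPM, and their part in its Scd1 level was not tested.

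Its paralog Scd2 was far more abundant, at 149, 123, 146, 172 and 125 CPM in WT/mut libraries, against 90.2, 188, 196 and 114 CPM in WT libraries. WT replicates 1 and 5 were the low ones again, and WT replicates 3 and 4 the highest of all. The log2 fold change was -0.04 ± 0.22 (edgeR adjusted p = 0.952), with either sign across the alternatives. The division of reads between Scd1 and Scd2 is uncertain where their sequences are alike.

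The elongases and fatty acid desaturases showed no common direction. Elovl5, which lengthens polyunsaturated fatty acids, varied little among WT/mut libraries, at 191 ± 8 CPM in WT/mut libraries and 176 ± 22 CPM in WT (0.12 ± 0.10, edgeR adjusted p = 0.612). Elovl6, which lengthens saturated ones, averaged 10.5 ± 3.0 CPM in WT/mut libraries and 12.4 ± 3.0 CPM in WT (-0.24 ± 0.25). Fads1 (0.12 ± 0.15) and Fads2 (-0.64 ± 0.31), the desaturases of polyunsaturated fatty acids, lay on opposite sides of WT. Fads2 had 3.55 to 5.68 CPM in WT/mut libraries and 3.35 to 9.14 CPM in WT libraries, with 3 of the 4 WT libraries above every WT/mut library and an edgeR adjusted p of 0.428. Without WT replicate 4 Fads2 was at -0.42, Elovl6 at -0.10 and Elovl5 at 0.06, Elovl6 was at -0.11 without WT/mut replicate 7, and Fads1 was between 0.04 and 0.20 on leaving out single WT libraries.

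**Figure D3:**
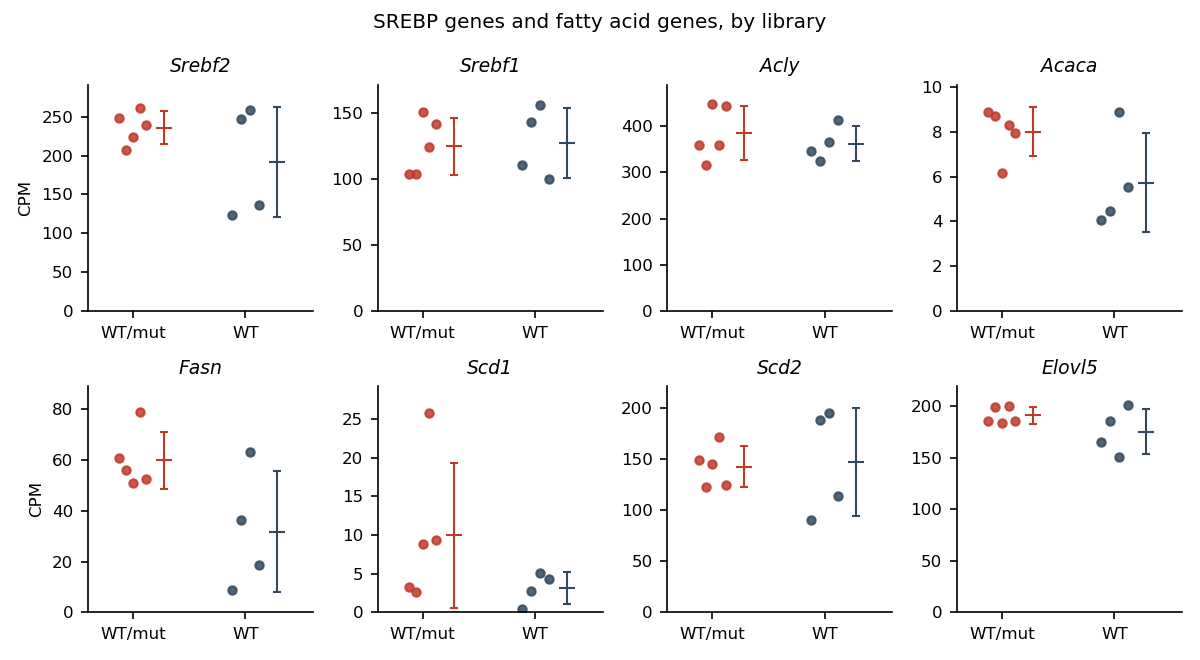
CPM of the SREBP genes and of 6 fatty acid genes in 5 WT/mut libraries (red, left) and 4 WT libraries (dark, right); each point is a library and the bar beside it the mean ± SD. WT points are wide apart for Srebf2, Fasn and Scd2, from 8.74 to 63.1 CPM for Fasn, and 1 WT/mut library stands alone for Scd1 at 25.8 CPM.

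Library by library, the branches parted in their own ways. The summed level of the sterol branch was 1024 to 1213 CPM in WT/mut libraries and 1296 to 1398 CPM in WT libraries, with no overlap. The summed fatty acid branch was 853 to 1037 CPM in WT/mut libraries and 764 to 1003 CPM in WT libraries, which overlapped. The mean log2(CPM + 1) of the sterol branch minus that of the fatty acid branch was 0.27, 0.09, -0.03, -0.13 and 0.09 in WT/mut replicates 6 to 10, against 1.05, 0.37, 0.19 and 0.72 in WT replicates 1, 3, 4 and 5. WT replicate 4 lay within the WT/mut range, and WT replicates 1 and 5 stood apart from the others. Each of those WT libraries held the highest level of 7 of the 21 sterol genes, and WT replicate 1 the lowest of 5 of the 10 fatty acid genes. WT/mut replicate 7, the library with the most detected genes, held the lowest level of 9 sterol genes.

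**Figure D4:**
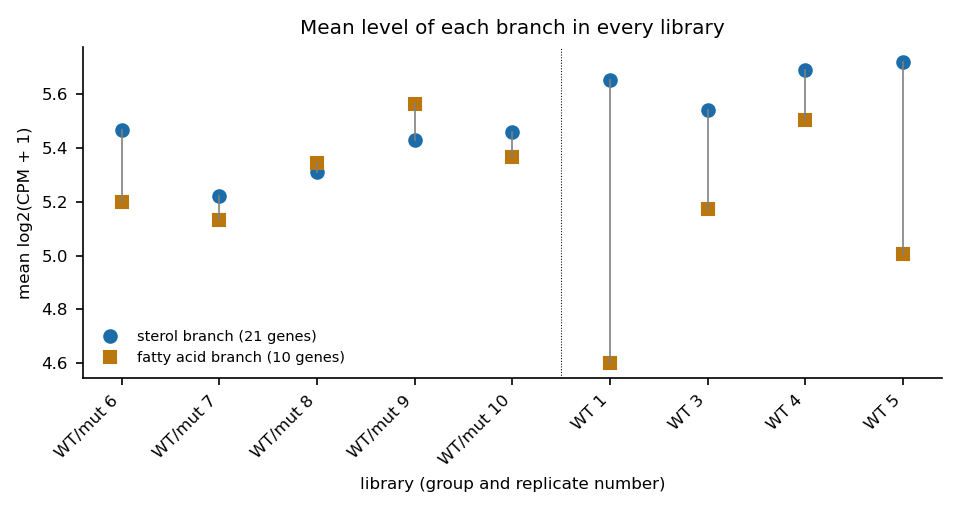
Mean log2(CPM + 1) of the 21 sterol genes (circles) and the 10 fatty acid genes (squares) in each library, 5 WT/mut on the left of the dotted line and 4 WT on the right; grey lines join the pair of a library. The pair lies within 0.27 in every WT/mut library and 1.05 apart in WT replicate 1.

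Levels between genes can be compared per kilobase of exon, though the merged exon bases used can exceed the length of any single transcript. In WT/mut cells Acly was highest at 72.9 ± 10.9 CPM per kilobase, followed by Elovl5 at 54.3 ± 2.3, Srebf2 at 32.9 ± 2.9, Scd2 at 26.2 ± 3.7 and Ebp at 23.5 ± 1.0 (SD, n = 5). Acat2 (22.3 ± 3.5) and Srebf1 (22.1 ± 3.8) came next, and the means of Ebp, Acat2 and Srebf1 differed by less than the SDs of Acat2 and Srebf1. Acaca was lowest at 0.469 ± 0.063 CPM per kilobase. On this scale the fatty acid branch held both the most and the least abundant of the 31 genes, Acly and Acaca, in WT/mut and in WT cells.

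Other lipid genes were taken from lists of 52 genes, also chosen with earlier results of these data known. Of the 52 genes 50 were tested. Of these 36 were below 0 and 14 above, with a median log2 fold change of -0.15, and edgeR called 0 at an adjusted p under 0.05. At an unadjusted p under 0.05, 12 were lower (24% of those tested) and 1 higher, the Rab escort gene Chm (0.39 ± 0.16, named after its value was seen). Ranges were separate for 7 (14%), all lower in WT/mut. DESeq2 called 1, Elovl1. Of all tested genes 6.46% were lower and 5.69% higher at an unadjusted p under 0.05. Separate ranges were found for 2.38% as lower and 2.09% as higher, and DESeq2 called 0.873% of its tested genes lower and 0.989% higher. The 21 tested genes of fatty acid handling outside the branch had 18 below 0 and a median of -0.25, on the other side of 0 from the fatty acid branch itself. At an unadjusted p under 0.05, 28.6% of these 21 were lower and 0 higher. Ranges were separate and lower for 19.0% of them, the same share as in the sterol branch.

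The wider genes of lowest p included steps of both pathways. Elovl1, which elongates very long fatty acids, averaged 100.3 ± 5.4 CPM in WT/mut libraries and 137 ± 24 CPM in WT libraries (-0.45 ± 0.12, edgeR adjusted p = 0.218). Every WT/mut library lay below every WT library for it, as for Hacd3 (-0.28 ± 0.09), a dehydratase of the elongation cycle, and Acsl5 (-0.28 ± 0.09), which activates fatty acids. Tecr (-0.39 ± 0.14), the reductase of that cycle, and Dgat1 (-0.41 ± 0.12), which makes triglycerides, overlapped.

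Among users of the isoprenoids made by the mevalonate steps, Fnta (-0.50 ± 0.15), a subunit of the protein prenyltransferases, and Rabggtb (-0.49 ± 0.14), a subunit of the enzyme that prenylates Rab proteins, were lower in every WT/mut library than in any WT library. Tmem97 (-0.64 ± 0.18), a sterol-regulated membrane protein, was also separate. The anchor gene Insig2 (-0.46 ± 0.15) and the sterol exporter Abcg1 (-0.42 ± 0.15) overlapped. The edgeR adjusted p of these 10 named genes lay between 0.218 and 0.334. The other 3 SREBP processing genes, Scap (0.17 ± 0.14), Mbtps1 (0.09 ± 0.09) and Mbtps2 (0.02 ± 0.26), had log2 fold changes above 0 and edgeR adjusted p of at least 0.640.

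**Figure D5:**
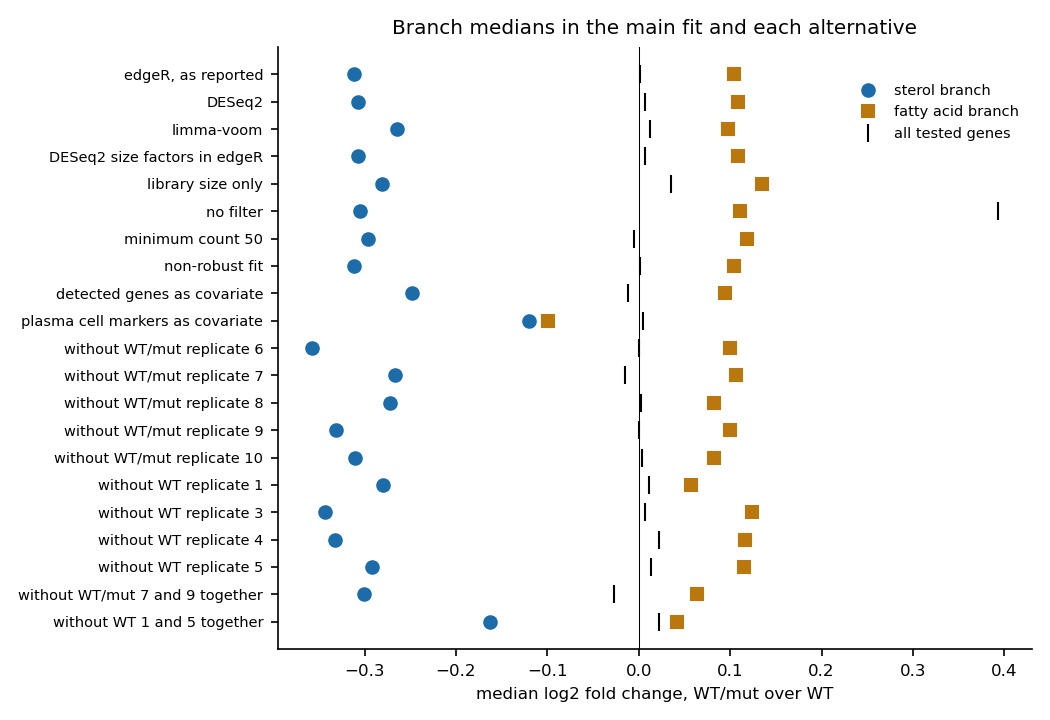
Median log2 fold change, WT/mut over WT, of the 21 sterol genes (circles), the 10 fatty acid genes (squares) and all tested genes (bars) as reported and under each of 20 alternatives. The sterol median lies between -0.36 and -0.12, and the fatty acid median is above 0 except with the plasma cell markers as a covariate, at -0.10; without a filter on low counts the median of all genes is 0.39.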

How the data were processed

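Messenger RNA of 9 libraries was measured, with 300 pg of RNA per library in a SMART-Seq kit that does not keep strand, per the labels' protocols. The deposited table holds the authors' expected counts per gene, which are estimated and need not be whole. The submitters' processing notes name cutadapt 2.10, STAR 2.5.3, RSEM 1.3.0, DESeq2 and mm10, without roles, and no annotation release is given in the sources used here. Every per-sample column was mapped to a library (0 left unused).

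Counts were rounded to whole numbers. Genes passing filterByExpr (minimum count 10, minimum total 15) were tested with edgeR 4.0.16 (R 4.3.3, limma 3.58.1), using TMM factors and a robust quasi-likelihood fit without covariates, and adjusted by Benjamini-Hochberg over all 15521 genes. CPM values use TMM-scaled library sizes. SE is the absolute log2 fold change over the root of F. Exact permutation tests on log2(CPM + 1) ran over all 126 assignments of libraries. Gene positions and exon lengths come from GENCODE M21 (GRCm38), in which 54079 of 54146 gene IDs and all 31 members were found. Promoters are RefSeq's.

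All 31 genes are named. Values per library are given where the unadjusted p was under 0.05 or ranges were separate, and for the 8 genes Srebf2, Srebf1, Insig1, Fasn, Acaca, Acly, Scd1 and Scd2; up to 10 wider lipid genes are named by lowest p. Members and lists were chosen with earlier results of these data known. Alternatives were DESeq2 1.42.0, limma-voom, other scalings and filters, a non-robust fit, covariates and leaving out libraries.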

Additional observations from a re-analysis of the deposited data

Results flagged for a closer look

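In WT/mut replicate 9, Scd1 stood at 25.8 CPM, far above the other 4 WT/mut libraries (2.70 to 9.31 CPM), a gap large against the range of the group. In WT/mut replicate 7, Fads2 stood at 5.68 CPM, above the 3.55 to 3.88 CPM of the other WT/mut libraries. These 2 were found among 62 groups of values looked at, and chance alone singles out about 1 in 20.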

How the results depend on the processing

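The counts and medians were recomputed under 20 alternatives, of which 2 (leaving out WT/mut 7 and 9, and WT 1 and 5) were chosen after seeing the data. The edgeR count of all genes called, 19 as reported, was 288 with DESeq2, 1 with detected genes as a covariate, 0 with plasma cell markers as a covariate (476 at an unadjusted p under 0.05), 1 without WT/mut 7 and 9, 2 without WT 1 and 5, and 2 to 23 on leaving out single libraries, 2 without WT/mut replicates 6 or 7 or WT replicate 3. DESeq2 called 4 sterol genes and 1 wider lipid gene, and no other alternative called a member. The 8 sterol genes lower at an unadjusted p under 0.05 became 1 with the plasma covariate, 5 without WT/mut 7 and 9, and 5 (without WT/mut replicate 8) to 10 on leaving out single libraries. The sterol median was -0.12 with the plasma covariate and -0.16 without WT 1 and 5, and the fatty acid median turned to -0.10 with the plasma covariate. That covariate also turned the sign of Tm7sf2 (0.17), Nsdhl (0.65), Ebp (0.061), Srebf2 (-0.16), Stard4 (-0.095), Acaca (-0.047), Fasn (-0.10) and Fads1 (-0.24). Leaving out WT 1 and 5 turned Nsdhl (0.075), Srebf2 (-0.11), Stard4 (-0.10) and Fads1 (-0.068). Genes near 0 changed sign elsewhere: Dhcr7 with library size alone (0.021) and a minimum count of 50 (0.0030), Scd2 with limma-voom (0.016) and detected genes (0.0066), Srebf1 with detected genes (0.046) and without WT/mut 7 and 9 (0.050), and Tm7sf2 without WT/mut 7 and 9 (0.012). On leaving out single libraries Mvd ran from -0.20 to 0.086, Tm7sf2 from -0.15 to 0.034, Dhcr7 from -0.10 to 0.054, Stard4 from -0.023 to 0.17, Srebf1 from -0.13 to 0.086 and Scd2 from -0.21 to 0.13. The cause of these shifts was not tested. No filter moved the median of all genes to 0.39. No paired analysis was possible because the groups share no replicate numbers. With 5 and 4 libraries and SEs of 0.10 to 0.76 (log2), small differences were not detectable.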
